A study of Zea mays with 157 samples.

Results

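The tip of a maize (Zea mays) leaf was compared with its base in 4 pairs of libraries, given by the inbred line B73 and the F1 hybrid of B73 and Mo17, each with the leaf suffixes L and N. The members are all genes and circRNAs that carry a B73 identifier in the lists that pair the 2 genomes, whether or not a Mo17 partner is given. They number 44146 of 71129 genes, of which 11637 have a Mo17 partner, and 80836 of 127209 circRNAs, of which 18312 have one. In both the B73 and the F1 table, 38566 of these genes and 26874 of these circRNAs were listed. After a filter on low values, 17667 genes and 2114 circRNAs could be tested, and 4359 genes and 16604 circRNAs listed in both tables were at 0 in all 8 libraries.

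The series is an atlas of circRNA and mRNA in 26 tissues of B73, Mo17 and their F1, grown in a greenhouse under 12 h of light and 12 h of dark at 25 °C with no treatment. The groups used here were tip and base of the leaf named Stage 2 at the growth stage V5 (5 on that scale), with 2 tip and 2 base libraries in each line for each RNA class. Each library mixed equal amounts of 3 extracts, each from 5 to 10 plants, so plant-to-plant spread was not measured and p-values rest on the spread between the 4 pairs. The labels do not give the meaning of L and N, nor the direction of the cross beyond the order of the parents.

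A grass leaf grows from its base, where cells divide, then expand and build their walls. The base is young tissue that imports sugar, and the tip is the oldest part of the blade, with mature chloroplasts that export it. A circRNA is a closed ring of RNA made when a splice donor joins an acceptor that lies upstream of it, so it shares its exons and its promoter with the mRNA of a host gene.

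The files do not pair the gene identifiers with names or functions, and none of them matched the reference gene table (0 of 44146), so genes are given by identifier only and no marker of photosynthesis, cell division or any cell type could be looked up. The labelled positions are therefore checked against other tissues below, not against markers. In bulk tissue, fewer cells of a type cannot be told apart from less RNA per cell.

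A single gene held much of each mRNA library. Zm00001d000417 took 43.7% to 56.8% of the abundance in the 4 tip libraries and 32.3% to 47.4% in the 4 base libraries. The 10 most abundant genes together took 51.1% to 61.7% at the tip and 37.6% to 52.4% at the base. Levels below were therefore divided by a scale factor per library, the median ratio over 14000 genes, which was 0.853 to 0.933 at the tip and 1.05 to 1.16 at the base. Without that scaling the median tested gene had a log2 change of -0.27, and with it 0.01.

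Tip and base differed in 19.1% of the genes that could be tested. With limma, Benjamini-Hochberg adjustment at 0.05 and the pair as a block, 1861 genes were higher and 1517 lower at the tip, which is 10.5% and 8.59% of the 17667 tested. Of the 1861, 1850 were higher at the tip in all 4 pairs, and of the 1517, 1515 were lower in all 4. Over all tested genes, 21.5% were higher in all 4 pairs and 21.6% lower in all 4. The split by direction depends on the scaling, since values as deposited gave 1072 higher and 5637 lower.

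Among the genes past the threshold, 753 were higher and 572 lower by a log2 change of 1 or more, 4.26% and 3.24% of those tested and 7.5% in either direction. They are called the tip set and the base set here. Large changes were more often falls than rises at the tip: 18 genes were higher and 34 lower by a log2 change of 3 or more, and 3 and 13 by 4 or more. Of the tip set, 76 genes reached a level of 1 in all 4 tip libraries and in no base library, so they passed the filter through the tip alone. Of the base set, 113 passed through the base alone. A near absence at one end was seen in 16 genes that stayed under 0.1 in all 4 tip libraries and were at 1 or more in all 4 base libraries, against 1 gene with the reverse pattern. The choice of these limits followed a look at the values.

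**Figure D1:**
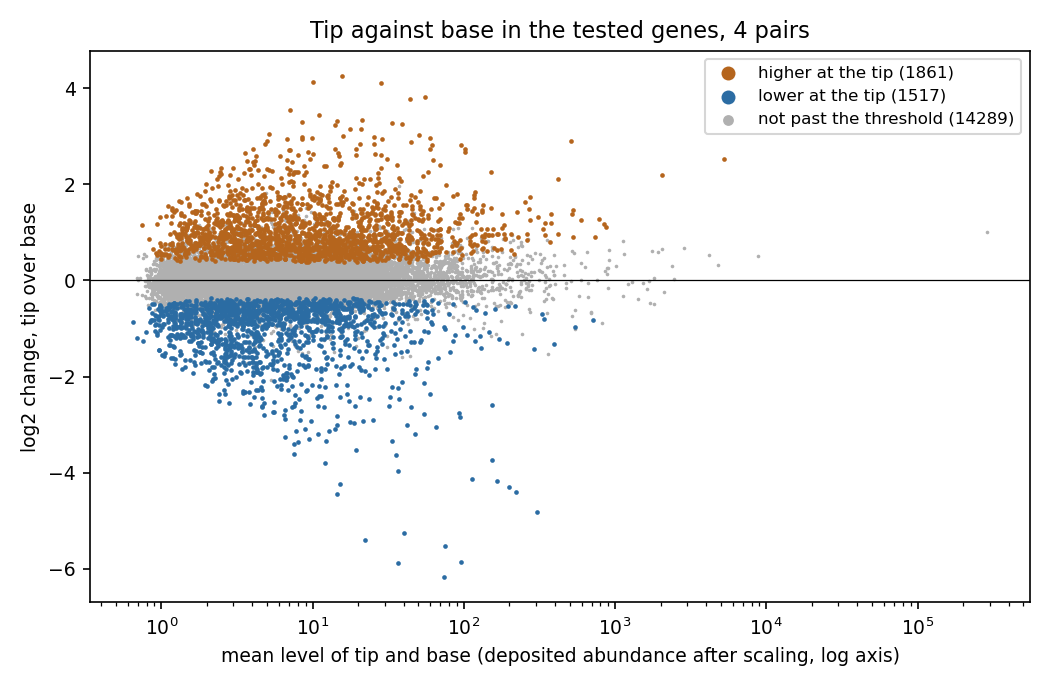
Log2 change of tip over base (vertical axis) against the mean level of the gene over tip and base (horizontal log axis, deposited abundance after scaling), 1 point per tested gene. The 1861 genes higher at the tip are orange, the 1517 lower at the tip are blue, and the largest falls reach further from 0 than the largest rises.

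By the change in log2(level + 1), the largest rise at the tip was that of Zm00001d018738, a gene without a Mo17 partner. The rank depends on the value added, since adding 0.1 gave it a change of 5.82 and Zm00001d043368, the second here, one of 6.12. Its scaled level was 17.1, 12.5, 46.8 and 46.6 at the tip of F1 L, F1 N, B73 L and B73 N, against 1.12, 0.386, 0.114 and 0.263 at the base in the same order. All tip libraries lay above all base libraries, and the B73 tips lay above the F1 tips. The mean was 30.8 ± 18.5 at the tip and 0.47 ± 0.445 at the base (SD, n = 4 each), a log2 change of 4.26 with a standard error of 0.44 (limma). At the base only F1 L reached 1. The 4 tip libraries were thus enough to meet the filter, and the p-value of this change is not given. The rise was 2.14 log2 units smaller in F1 than in B73, a difference between the lines that did not pass the threshold over all genes (adjusted p = 1.00, unadjusted p = 0.000197, limma). Outside tip and base, its highest level was in the ear leaf of both lines, 212 in F1 and 132 in B73, and in the 3 stages of the shoot apical meristem (SAM) it was at most 0.0773 in F1 and 0.0709 in B73.

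Zm00001d043368, also without a partner, had the smallest standard error of the named genes. It had 17.9, 18.5, 19.4 and 24.3 at the tip and 0.137, 0.232, 0.175 and 0.216 at the base in F1 L, F1 N, B73 L and B73 N. The groups did not overlap, and the base values were all near 0.2. The log2 change was 4.13 with a standard error of 0.12 (limma). No base library reached 1, so the gene passed the filter through the tip alone. Its p-value therefore supports nothing and is not given. Its highest level elsewhere was in the 1 cm tassel, 21.98 in F1 and 53.4 in B73, and it was also present in the SAM, at up to 14.9 and 19.3 in those lines. High levels of this gene were thus not limited to mature leaf.

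By the same measure the largest fall was that of Zm00001d052683, which has a Mo17 partner. Here too the rank depends on the value added, since adding 0.1 gave it a change of -7.21 and Zm00001d015217 one of -7.97. Its scaled level was 1.12, 0.483, 0.881 and 0.691 at the tip of F1 L, F1 N, B73 L and B73 N, against 211, 66.1, 230 and 83.1 at the base. The tip libraries were alike and low, and at the base the L libraries held more than the N libraries in both lines. The mean was 0.793 ± 0.27 at the tip and 147 ± 84.8 at the base (SD, n = 4 each), and the log2 change was -6.18 with a standard error of 0.26 (limma). At the tip only F1 L reached 1. The 4 base libraries were thus enough to meet the filter, and the p-value is not given. In Mo17, which took no part in the fit, it had 0.0791 and 0.119 at the tip and 63.4 and 10.3 at the base (L and N). Its highest level elsewhere was in the stem, 205 in F1 and 480 in B73.

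Zm00001d015217 had 0.178, 0.0938, 0.18 and 0.267 at the tip of F1 L, F1 N, B73 L and B73 N and 45.9, 48.5, 113 and 85.4 at the base. All tip values were near 0, and the base values were higher in B73 than in F1. The log2 change was -5.88 with a standard error of 0.22 (limma). No tip library reached 1, so this gene passed the filter through the base alone, and its p-value is not given. Elsewhere it was highest in the husk leaf, at 17.7 in F1 and 21.7 in B73. No other tissue of either line reached its lowest level at the leaf base.

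Zm00001d004689, the second named fall among genes without a partner, had 1.77, 0.85, 3.66 and 1.87 at the tip and 266, 64.01, 127 and 135 at the base in that order of libraries. The log2 change was -5.52 with a standard error of 0.29 (limma, adjusted p = 0.000613). In contrast to Zm00001d015217, its level was far higher in another organ, the primary root 6 days after sowing, with 1180 in F1 and 1117 in B73, and it was also high in the SAM, at up to 183 in F1 and 108 in B73. All 5 named genes passed the threshold under each of the 16 alternatives run for them. They were named for the largest changes past the threshold in these same libraries, so the refits add no independent support. Zm00001d043368 and Zm00001d015217 also entered the fit only through the end where they are high. For Zm00001d018738 and Zm00001d052683 that end alone was enough to meet the filter.

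**Figure D2:**
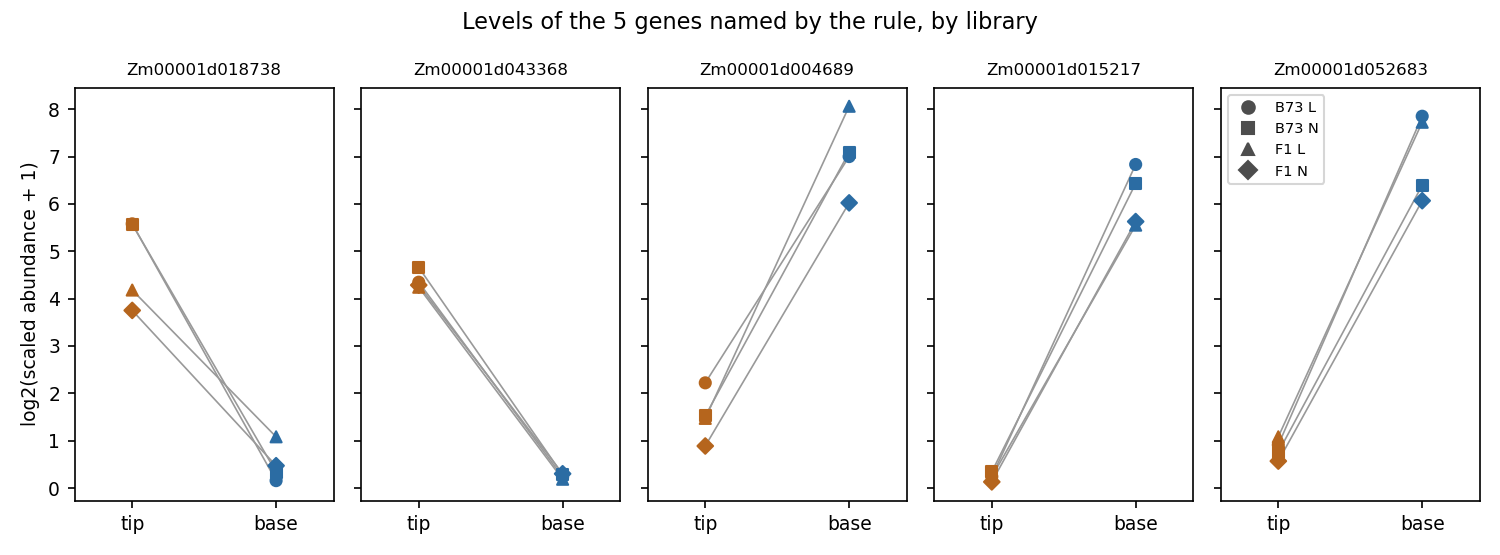
Level of the 5 named genes, as log2 of the scaled abundance plus 1 (vertical axis), with tip left of base and 1 line per pair. In all 5 genes the tip and base libraries do not overlap, and the 4 pairs move the same way.

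Some genes with changes in the same direction carried consecutive identifiers, somewhat above the share over all tested genes. Among hosts of circRNAs whose next number is also a host, 4005 of 4011 such neighbours lay on the same chromosome, and the distance between such genes was not measured. Of 794 genes higher at the tip whose next number was tested, 126 (15.9%) had a next gene that was also higher and 62 (7.81%) one that was lower, against 10.5% and 8.59% of all tested genes. Of 573 genes lower at the tip, 76 (13.3%) had a next gene also lower and 52 (9.08%) one that was higher, against 8.59% and 10.5%. These shares are given as a description, and the pattern was looked for after the values had been seen.

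Both of the largest falls had such a neighbour, again noticed from the values. Zm00001d052684 had 1.05, 0.584, 0.221 and 0.201 at the tip of F1 L, F1 N, B73 L and B73 N, against 168, 22.6, 107 and 23.2 at the base. Like Zm00001d052683 it was higher in the L than in the N libraries at the base (log2 change -5.26, limma). Before scaling, no tip library of Zm00001d052684 reached 1. It passed the filter through the base alone, so its p-value is not given. Zm00001d015216 had 0.0432, 0.0366, 0.0356 and 0 at the tip, against 59.4, 57.8, 31.2 and 30.4 at the base (log2 change -5.40, limma). At the base F1 lay above B73, where its neighbour Zm00001d015217 had B73 above F1. Like that neighbour, Zm00001d015216 passed the filter through the base alone, so its p-value is not given. On the other side of the first pair, Zm00001d052682 had a log2 change of -0.18 (limma, adjusted p = 0.43).

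The longest run held 5 consecutive genes, Zm00001d002014 to Zm00001d002018, all higher at the tip, while the next longest held 3. Their mean levels were 7.04 to 15.96 at the tip and 0.368 to 1.80 at the base, with log2 changes of 2.20 to 2.98. Zm00001d002015 and Zm00001d002017 had closely similar values in every library, 11.3, 22.1, 18.2 and 11.7 at the tip for the first and 11.9, 20.8, 19.2 and 11.8 for the second. The sources used here do not say how reads that match several genes were assigned, so values of near-identical copies could be shared, and that was not tested.

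The share past the threshold was set side by side for genes without and with a Mo17 partner. Of 11232 tested genes without a partner, 1268 were higher and 1005 lower at the tip, 20.2% in all. Of 6435 with a partner, 593 were higher and 512 lower, 17.2%. At a log2 change of 1 or more the shares were 8.35% without and 6.01% with a partner. Median levels were close, 6.09 without and 6.01 with a partner. Fitted separately, 19.6% of genes without and 18.9% of genes with a partner passed, so the gap was smaller there, and the difference in shares was not tested.

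The tip to base change was next compared between lines and between suffixes. No gene passed the threshold for a difference between F1 and B73 (limma, 0 of 17667, with 587 or 3.32% at an unadjusted p under 0.05). None passed for a difference between L and N (limma, 0 of 17667, with 1917 or 10.9% at an unadjusted p under 0.05, and a smallest adjusted p of 0.0814). Each of these tests sets 2 pairs against 2, and a p that misses the threshold does not show equal changes. In direction, 925 genes were higher at the tip in both L pairs and lower in both N pairs, and 751 had the reverse. The tip set had a median log2 difference of 1.27 in F1 L, 1.35 in F1 N, 1.71 in B73 L and 1.39 in B73 N. The base set had medians of -1.91 in F1 L, -1.09 in F1 N, -1.59 in B73 L and -1.53 in B73 N, so its change was smallest in the F1 N pair.

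Mo17 gave a look at the same leaf in libraries that the fit did not use, for the genes with a partner. The libraries labelled Mo17 tip L and tip N stood apart from the rest. Of 618 genes that differed between L and N by a log2 value of 1 or more in the same direction at the tip of B73 and F1, 12 (1.94%) had that direction in the Mo17 tip, whereas 398 of 425 such genes of the base (93.6%) had it in the Mo17 base. The Mo17 pairs by suffix therefore join libraries whose suffix may not mean the same, and the mean over both pairs, which does not depend on it, is given first.

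Over that mean, 222 of the 233 tip set genes measured in Mo17 (95.3%) were higher at the tip, against 50.1% of all 6426 tested genes with a value there. Of the 154 base set genes, 153 (99.4%) were lower, against 49.7% of all. The median log2 difference was 1.10 in the tip set, -1.72 in the base set and 0.00 in all. By labelled pair, 85.0% of the tip set were higher at the tip in L and 76.8% in N, and 93.5% and 94.8% of the base set were lower. The values are descriptions, with no test, since each Mo17 position has 1 library per suffix.

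Across the 22 other tissues, the tip set had its highest median in the ear leaf and the base set had its highest in the husk leaf. In both F1 and B73 the median of the tip set lay above that of the base set in 4 of the 22, the ear leaf, both first leaf libraries and the third leaf. In the ear leaf its median log2 level was 4.57 in F1 and 4.85 in B73, where the base set had 1.77 and 1.76 and all tested genes 3.62 and 3.52. In the stem the tip set had 0.96 in F1 and 0.87 in B73, and the base set 3.60 and 3.49. Of the 753 tip set genes, 285 in F1 (37.8%) and 307 in B73 (40.8%) had their highest level outside tip and base in the ear leaf, against 10.8% and 10.6% of all tested genes.

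In the husk leaf, one of the modified leaves around the ear, the median log2 level of the base set was 4.69 in F1 and 4.20 in B73, and 185 base set genes in F1 (32.3%) and 147 in B73 (25.7%) had their highest level there. Of all tested genes, 8.42% in F1 and 7.83% in B73 had it there. It was also above the median of all genes in the primary root 6 days after sowing (3.99 in F1 and 3.92 in B73, against 3.28 and 3.11 for all) and in the internode (3.53 and 3.52, against 3.26 and 3.15). In the SAM it did not exceed all genes. At the stage SAM V3, its median was 2.71 in F1 and 2.50 in B73, against 3.22 and 3.02 for all tested genes. The tip set was lower still there, with 0.54 in F1 and 0.33 in B73. The husk leaf was the tissue where the tip set itself differed most between the lines, with 2.72 in F1 and 4.12 in B73.

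Set gene by gene, ear leaf minus the mean of the SAM stages was above 0 for 674 of 753 tip set genes in F1 (89.5%) and 688 in B73 (91.4%), against 56.3% and 56.7% of all tested genes. For the base set it was above 0 in 211 of 572 genes in F1 (36.9%) and 226 in B73 (39.5%). Stem and internode minus ear leaf was above 0 for 407 of 572 base set genes in F1 and 407 in B73 (71.2% in each), against 43.6% and 44.2% of all tested genes. The first leaf lay below the topmost leaf at V3 for most of the base set, with 119 genes above 0 in F1 (20.8%) and 109 in B73 (19.1%), against 44.2% and 44.5% of all tested genes. Each tissue has 1 library per line and no replicate, and the tissues share the libraries' scaling.

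**Figure D3:**
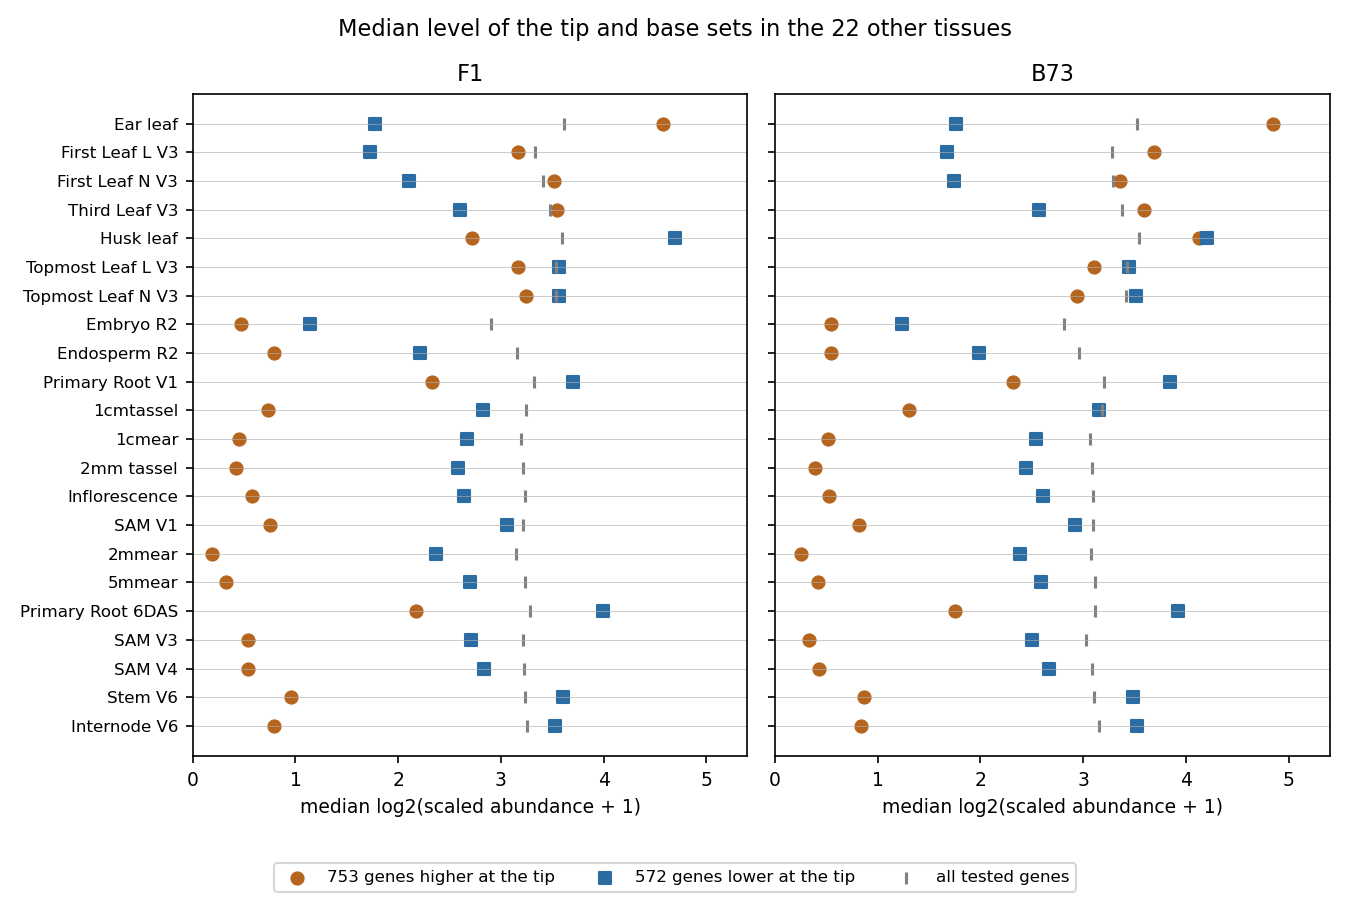
Median log2 of the scaled abundance plus 1 (horizontal axis) in the 22 tissues other than tip and base (vertical axis), for F1 on the left and B73 on the right, for the 753 genes of the tip set (orange circles), the 572 of the base set (blue squares) and all tested genes (grey bars). The tip set lies to the right of the base set in 4 tissues, all of them leaves, and far to its left in stem and internode.

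The number of circRNAs found did not separate tip and base. The L pairs had fewer at the tip, with 3193 against 3991 at the base in F1 and 3193 against 4400 in B73. The N pairs had more at the tip, with 3827 against 3467 at the base in F1 and 4280 against 3078 in B73. The mean was 3623 ± 530.1 at the tip and 3734 ± 581 at the base (SD, n = 4 each), and the exact two-sided sign-flip permutation test over the 4 pairs gave p = 0.875, where the smallest p it allows is that of 2 of the 16 sign patterns. At 0.2 RPM or more the tips held 777, 858, 790 and 915 circRNAs in F1 L, F1 N, B73 L and B73 N, and the bases 927, 882, 963 and 841.

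Depth moved with those counts. The smallest value of a library, taken as the worth of 1 read, implied 11076200 reads at the tip and 12861302 at the base in F1 L, and 11043074 and 13940599 in B73 L. In F1 N it implied 12535203 at the tip and 10161719 at the base, and in B73 N 13675121 and 11152407. The end with more reads had more circRNAs in all 4 pairs, and the part of depth in the counts was not tested. Between 54.2% and 58.8% of the values above 0 in a library lay at 1 read.

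**Figure D4:**
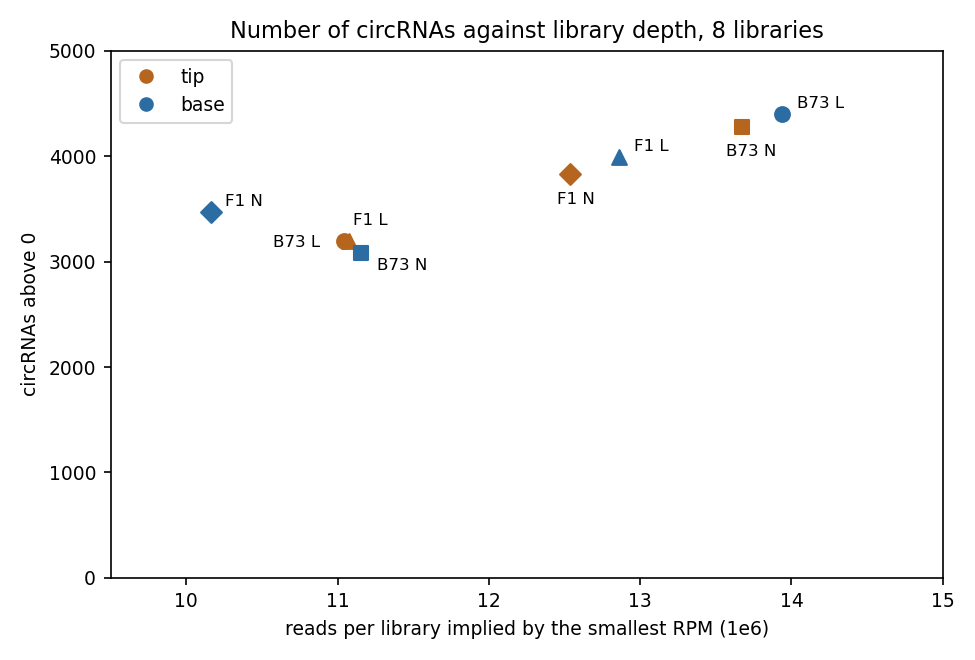
Number of circRNAs above 0 (vertical axis) against the reads implied by the smallest RPM of the library, in units of 1e+06 (horizontal axis, which does not start at 0), for the 4 tip libraries (orange) and the 4 base libraries (blue). In each pair the library further to the right also lies higher.

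The summed circRNA level, already scaled to the reads of each library, was 931 RPM at the tip and 1145 at the base in F1 L, 1056 and 1171 in F1 N, 988 and 1239 in B73 L, and 1228 and 986 in B73 N. It was lower at the tip in 3 of 4 pairs and the groups overlapped. The mean was 1051 ± 129 RPM at the tip and 1135 ± 107 RPM at the base (SD, n = 4 each), with p = 0.5 in the exact two-sided sign-flip permutation test.

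Most circRNAs were seen too rarely to compare. Of the 26874 listed in both tables, 10270 were above 0 in any of the 8 libraries, 5323 of them in 1 library, and 603 were above 0 in all 8. Among those 603, 289 were higher and 314 lower on average at the tip, with a median log2 change of -0.03. In all 4 base libraries and no tip library there were 19 circRNAs, and in all 4 tip libraries and no base library 10.

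Of the 2114 circRNAs above 0 in at least 4 of the 8 libraries, 1 was higher and 15 were lower at the tip (limma, Benjamini-Hochberg adjustment at 0.05), 0.0473% and 0.71% of those tested and 0.757% in either direction. Of the 15, 9 were above 0 in all 4 tip libraries, and 2 were at 0 in all of them, so these 2 passed the filter through the base alone. The rest were above 0 in only some tip libraries, and their base libraries were enough to meet the filter. Over all tested circRNAs, 19 passed through the base alone and 10 through the tip alone. At an unadjusted p under 0.05 there were 210. In all 4 pairs, 4.82% of the tested circRNAs were higher at the tip and 9.18% lower. Scaling each library to an equal circRNA sum gave 6 higher and 14 lower. No circRNA passed for a difference between F1 and B73 (limma, 0 of 2114, with 68 or 3.22% at an unadjusted p under 0.05) or between L and N (0 of 2114, with 125 or 5.91%).

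The 1 circRNA that was higher at the tip is Zmcirc007729, at 6:10038925-10039446 on the plus strand of B73 RefGen_v4 as the files give it, in the host Zm00001d035212. It had 5.78, 8.50, 11.3 and 11.7 RPM at the tip of F1 L, F1 N, B73 L and B73 N, against 2.35, 2.57, 3.97 and 3.89 RPM at the base. No tip value fell below a base value, and B73 held more than F1 at either end. The log2 change was 1.51 with a standard error of 0.21 (limma, adjusted p = 0.00286). The mRNA of the host averaged 76.8 at the tip and 58.4 at the base, with a log2 change of 0.39 (limma, adjusted p = 0.218, not past the threshold). In Mo17 the circRNA was at 0 and 0.163 RPM at the tip and 0 and 0.0967 RPM at the base (L and N), although the lists give it a Mo17 partner, so almost none was seen in that line.

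The largest fall by the fitted change was that of Zmcirc037477, at 5:215344182-215345669 on the plus strand, in the host Zm00001d018142. It was at 0 in all 4 tip libraries and had 0.803, 1.48, 0.717 and 0.628 RPM at the base of F1 L, F1 N, B73 L and B73 N. Against a limit of 3 reads in each tip library, 0.219 to 0.272 RPM, its mean was at least 3.62-fold lower at the tip. It passed the filter through the base alone, so its p-value supports nothing and is not given, and its rank is set by the value added. With a value 10 times larger its log2 change was -1.15, against -1.81 for Zmcirc021871 and -1.76 for Zmcirc000447. It is the only circRNA catalogued for its host. The mRNA of the host had a mean level of 6.54 at the tip and 40.5 at the base. Its log2 change was -2.46 with a standard error of 0.14 (limma, adjusted p = 0.000801). The fall of the ring is known only as a lower bound, so these values show no contrast between ring and host.

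The second fall, Zmcirc038375 at 5:20565384-20572217 on the minus strand, is one of 3 circRNAs lower at the tip from a single host, Zm00001d013798, the most of any host. It had 0, 0.0798, 0 and 0 RPM at the tip and 0.803, 0.328, 1.55 and 0.717 RPM at the base in F1 L, F1 N, B73 L and B73 N (log2 change -3.24, limma). The 1 tip value above 0 lay at 1 read. The 4 base libraries were thus enough to meet the filter, and the p-value is not given. Zmcirc037383, at 5:20571211-20572217, ends at the same base and had 0, 0, 0.136 and 0.0731 RPM at the tip and 0.778, 0.427, 1.65 and 1.11 RPM at the base. Zmcirc037382 lies at 5:20534675-20536315 and had 0, 0, 0.0906 and 0 RPM at the tip and 0.285, 0.262, 1.05 and 0.329 RPM at the base. Of the host's 24 catalogued circRNAs, 12 were listed in both tables and 6 were tested.

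Summed over the circRNAs of Zm00001d013798, the tip had 0, 0.0798, 0.317 and 0.244 RPM and the base 3.11, 1.67, 6.82 and 4.04 RPM in F1 L, F1 N, B73 L and B73 N. The mRNA of the gene had 1.33, 0.991, 1.87 and 0.987 at the tip and 27.6, 4.87, 86.5 and 31.7 at the base. Ring and linear RNA were both high at the base, with the largest value in B73 L and the smallest in F1 N in each. The mRNA had a log2 change of -3.54 with a standard error of 0.50 (limma, adjusted p = 0.0067). The summed circRNA had one of -4.21 with a standard error of 0.37 (limma), a sum added after seeing the data. The host was named for circRNAs already past the threshold in these libraries, so the p-value of the sum is not given.

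Together the 15 circRNAs lower at the tip summed to 10.2, 11.6, 10.6 and 14.7 RPM at the tip of F1 L, F1 N, B73 L and B73 N, and to 39.2, 35.6, 48.2 and 41.3 RPM at the base. These sums describe the selection and carry no test. In other tissues of B73 the 15 summed to 13.8 RPM in the ear leaf, 22.2 RPM in the third leaf, 61.03 RPM in the husk leaf, 159 RPM in the stem and 251 RPM in the 1 cm tassel, the highest of the 22. Sums of all tested circRNAs in these tissues are not given beside them. More circRNA in a tissue as a whole can therefore not be told apart from a trait of the 15. The F1 tissues are not given either. In B73, a pair of the 15 carried much of the highest sums. Zmcirc023980 had 77.9 RPM in the stem and 72.99 RPM in the 1 cm tassel, and Zmcirc000447 had 42.1 and 105 RPM there. Of the 15, 4 were at 0 in the stem, which are the 3 circRNAs of Zm00001d013798 and Zmcirc007424, and 5 were at 0 in the 1 cm tassel. The spans of the 15 and of the 1 higher circRNA ran from 341 to 6833 bp with a median of 1166 bp, and the tested circRNAs had a median of 1294 bp.

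The mRNA of the host was lower at the tip for 9 of the 15, and for 4 it was tested and not past the threshold. The hosts of the remaining 2, Zmcirc023980 and Zmcirc000447, had no tested mRNA. Over all circRNAs with a tested host, 132 of 2071 had a host that was lower. Of the 9, 3 share the host Zm00001d013798 and are not independent. Zmcirc000447, at 4:60866698-60868024 in Zm00001d050024, had 0.542, 0.853, 0.755 and 1.56 RPM at the tip and 4.29, 2.38, 6.31 and 7.26 RPM at the base in F1 L, F1 N, B73 L and B73 N (log2 change -2.34, limma, adjusted p = 0.00286). In Mo17 it had 0.35 and 0.949 RPM at the tip and 2.73 and 2.93 RPM at the base, and the tips lay below the bases. Of the 5 lower circRNAs listed in Mo17, 4 had both tips below both bases. The exception was Zmcirc001035, with 5.35 and 3.36 RPM at the tip and 3.99 and 8.05 RPM at the base (L and N), which overlap. These and the next circRNAs were chosen after their values were seen.

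A contrast between ring and host was seen for Zmcirc000749, at 3:198081445-198085747 in Zm00001d043376. It had 3.61, 3.04, 2.75 and 3.71 RPM at the tip and 5.32, 6.601, 8.01 and 8.67 RPM at the base of F1 L, F1 N, B73 L and B73 N, without overlap (log2 change -1.09, limma, adjusted p = 0.0482). The call was lost in 8 of 12 alternatives, among them 3 of the 4 that leave out a pair (adjusted p = 0.0364 to 0.165 over the 4, limma). The mRNA of its host averaged 7.22 at the tip and 7.19 at the base (log2 change -0.01, limma, adjusted p = 0.982). The difference between the 2 changes was not tested, since the tables have different units. Zmcirc023293, in Zm00001d005812, was at 0 in all tip libraries and had 0.337, 0.492, 0.311 and 0.269 RPM at the base, while its host mRNA averaged 55.6 at the tip and 39.04 at the base (limma, adjusted p = 0.0821). That circRNA passed the filter through the base alone, and its call was lost in all 4 fits that leave out a pair.

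Over all circRNAs with a tested host (2071 circRNAs of 1316 hosts), the direction of ring and linear RNA tended to go together. Of 123 circRNAs whose host mRNA was higher at the tip, 100 (81.3%) were higher on average, 17 in all 4 pairs. Of 132 whose host mRNA was lower, 100 (75.8%) were lower, 47 in all 4 pairs. Where the host was not past the threshold, 845 of 1816 (46.5%) were higher and 971 (53.5%) lower. The median circRNA log2 change was 0.44 with a higher host, -0.56 with a lower host and -0.04 with a host not past the threshold. With hosts of the base set, 31 of 35 circRNAs were lower with a median of -1.52, against a median host change of -1.75. With hosts of the tip set, 18 of 23 were higher with a median of 0.50, against a median host change of 1.32. circRNAs of 1 host share its transcript and are not independent, and the counts are a description.

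**Figure D5:**
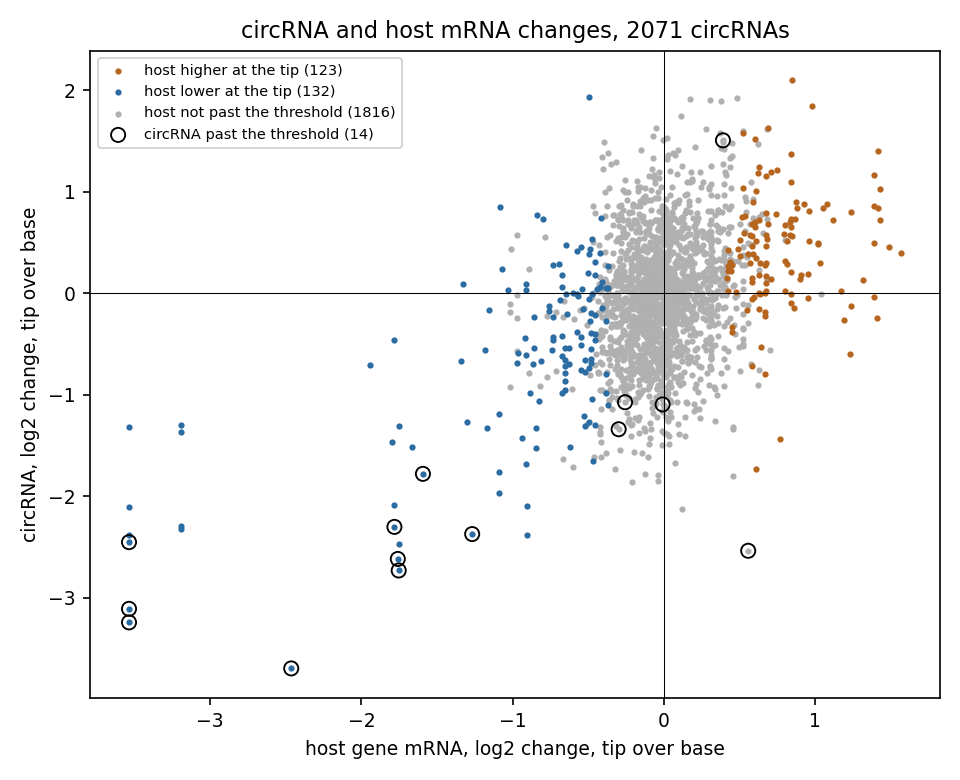
Log2 change of the circRNA (vertical axis) against that of the mRNA of its host gene (horizontal axis), both tip over base, 1 point per circRNA with a tested host. Rings mark the 14 circRNAs past the threshold with a tested host. Of the lower ones, 9 have a host that is lower at the tip (blue), as do 132 of all 2071 circRNAs shown. The 1 higher one has a host not past the threshold (grey).

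The tip set was host to fewer listed circRNAs per gene than the tested genes at large. The 753 genes had 254 listed circRNAs, 33.7 per 100 genes, against 137 per 100 over all 17667 tested genes. At least 1 was listed for 15.7% of the tip set and 42.1% of all tested genes. The difference was not tested. The lists span all 26 tissues, and in most other tissues the median mRNA level of the tip set lay below that of all tested genes. At SAM V3 it was 0.54 in F1 and 0.33 in B73, against 3.22 and 3.02. How far such levels account for the lower count was not tested. In the leaf libraries the 254 circRNAs summed to 8.73 ± 2.06 RPM at the tip and 4.67 ± 1.34 RPM at the base (SD, n = 4 each). The 572 genes of the base set had 729, or 127 per 100 genes, which summed to 7.10 ± 1.77 RPM at the tip and 33.6 ± 7.30 RPM at the base. The number of circRNAs found for base set hosts was 21, 29, 36 and 42 at the tip of F1 L, F1 N, B73 L and B73 N, and 95, 62, 116 and 72 at the base. In both N pairs it was lower at the tip, and the N tips had more reads and more circRNAs in all. The base set was picked for lower mRNA at the tip in the same lines and suffixes. These counts describe that selection, and the part of depth in them was not tested.

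With RPM summed per host, an analysis added after seeing the data, 4 of 1746 hosts were higher and 15 lower at the tip (limma, Benjamini-Hochberg adjustment at 0.05, 0.229% and 0.859%, or 1.09% in either direction). The 4 higher hosts were Zm00001d035212, Zm00001d048693, Zm00001d052174 and Zm00001d038163. Zm00001d038163 had 1.05, 3.01, 3.46 and 1.46 RPM at the tip of F1 L, F1 N, B73 L and B73 N over its 72 listed circRNAs, against 0.544, 0.755, 0.526 and 0.0897 RPM at the base. No tip value fell below a base value (log2 change 2.14, limma, adjusted p = 0.00187). The base value of B73 N lay at 1 read, and the log2 difference of that pair, 3.25, was the largest of the 4. The mRNA of Zm00001d038163 had a log2 change of 0.68 (limma, adjusted p = 0.148, not past the threshold). Of the other 3, Zm00001d048693 and Zm00001d052174 were also higher at the tip in mRNA, by log2 changes of 0.60 and 0.69 (limma, adjusted p = 0.0111 and 0.00832).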

How the data were processed

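The values are the authors' deposited tables. circRNA tables hold RPM, values scaled to library reads, as deposited by the authors. The Mo17 mRNA table was deposited by the authors as TPM, by its column sums. The B73 and F1 mRNA tables hold an abundance score deposited by the authors, of a unit named nowhere in headers or labels. In 98.8% of B73 values it is a whole multiple of 1e-06 divided by 3 (tolerance 0.02), steps that a mean of 3 values would have, and 99.6% of F1 values of paired genes are whole at 1e-06 divided by 6. No source used here says whether values were averaged, so that a library is 1 mix of 3 extracts rests on the labels. SAMtools, TopHat, StringTie and HISAT appear in the submitters' processing notes, with B73 RefGen_v4 as build. circRNA starts equal those of a BED-layout table of the series in 2314 of 2539 entries, so a start may be 1 lower than a browser shows.

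Members and lists were chosen with earlier results of these data known. mRNA was scaled by median ratios, log2(value + 1) was fitted with a trend in limma 3.58.1 (R 4.3.3), and genes at 1 or more in 4 of 8 libraries were kept. circRNAs above 0 in 4 of 8 libraries were fitted as log2(RPM + 0.0717), unscaled. Such changes understate low features. Line and suffix formed the block: deviations of tip and base of a pair correlated at 0.676 to 0.754 for mRNA and 0.0345 to 0.298 for circRNA. B73, F1 and Mo17 tables were normalized separately, and other tissues were scaled within their table. The code was tested on simulated data. For mRNA, 58% of planted log2 changes of 1 and 92% of 2 passed the threshold, and 3.23% of calls were false. For circRNA, 3% and 48% passed, and 8.93% of calls were false. The circRNA fit thus missed most changes of that size, so the shares past the threshold are not comparable between the RNA classes. Named by rule were the 2 largest rises and falls past the threshold with 4 concordant pairs, in all genes, genes without a partner and circRNAs, and the host with most such circRNAs. Alternatives are below. Intervals from reads cover counting error only.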

Additional observations from a re-analysis of the deposited data

Results flagged for a closer look

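The number of circRNAs above 0 went opposite ways in the L and N pairs, which is what marked it for a closer look. Tip minus base was -798 in F1 L and -1207 in B73 L, and 360 in F1 N and 1202 in B73 N. The difference between L and N was not tested, and depth moved the same way in all 4 pairs.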

How the results depend on the processing

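Alternatives for the mRNA comparison changed the number of genes past the threshold, 3378 (1861 higher, 1517 lower). Values as deposited gave 6709 and equal sums 10484 (882 higher, 9602 lower), where the median gene fell by 0.27 and 0.44 on the log2 scale. Of the 753 tip set genes, 723 and 692 stayed past the threshold there, and all 572 of the base set. Without the replicate block 1065 genes passed, 365 of the tip set and 363 of the base set among them. No filter beyond 0 gave 2008, a filter at 5 gave 2025, F1 alone 343, B73 alone 617, genes with a partner alone 1213, those without 2206, and a log2 change of 1 or more 1325. Leaving out 1 pair gave 1715 to 2302, with 1715 without B73 N, 2143 without B73 L and 2205 without F1 N. For the difference between L and N, a pseudocount of 0.1 gave 2 genes and a filter at 5 gave 3, and without the block 0 passed for suffix and for line.

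For circRNAs (16), a pseudocount 10 times larger gave 25, a filter of 2 libraries 2, no trend 2, F1 alone 232, B73 alone 4, no replicate block 19, and leaving out 1 pair 10 to 25, with 10 without F1 L and 25 without B73 N. The mean difference in the number of circRNAs, -111, was -584 counting values at or above 1 read of the shallowest library (F1 N base, which kept all its 3467 while the others lost those of 1 read, so F1 N turned to -1832), -68.3 at 0.2 RPM, 8.5 with a Mo17 partner only, and -548 to 255 leaving out 1 pair, above 0 without B73 L (255) or F1 L (118). That in summed RPM, -84.3, was -193 to -28.8. Under no replicate block, exact permutation tests gave p = 0.743 and p = 0.371. Of 188 values of the 16 circRNAs under alternatives, 66 missed the threshold and none changed sign. Per circRNA, 1 to 8 were missed: Zmcirc000749 missed it in 8 of 12, Zmcirc023293 and Zmcirc037382 in 8 of 11, Zmcirc038375 in 3 of 11, Zmcirc000447 and Zmcirc007729 in 2 of 12, Zmcirc037383 in 1 of 12 and Zmcirc037477 in 1 of 11. Causes were not tested.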
